A study of Mus musculus with 6 samples.

Results

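Interferon-response endothelial cells are endothelial cells of the mouse heart whose RNA holds several transcripts of the interferon response. They were chosen by measured values, the single-cell UMI counts of 13 genes (a UMI marks 1 captured RNA molecule). A barcode needed at least 1000 UMIs, and where the same barcode sequence occurred in several libraries, the occurrence with the most UMIs was kept. An endothelial cell needed at least 3 UMIs summed over Pecam1, Cdh5, Egfl7 and Kdr, and at most 1 UMI summed over Col1a1, Dcn, Upk3b and C1qa. An interferon-response cell also had at least 1 UMI in at least 3 of the 5 genes Ifit1, Ifit2, Ifit3, Isg15 and Rsad2, called rule genes here. Of 18283 deposited barcodes, 12493 were kept, 9629 of these were endothelial (77.1%), and 1129 of the endothelial cells (11.7%) met the rule. The remaining 8500 endothelial cells are the cells they are set against.

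C57BL/6 mice between 3 and 6 months old gave the hearts, in 3 libraries of Dsp_het mice and 3 libraries of control mice. All mice carried Wt1CreERT2 and Rosa26mTmG, a reporter that turns from membrane Tomato to membrane GFP where Cre has acted. Dsp_het mice, written Wt1CreERT2:Rosa26mTmG:DspW/F in the labels, carried in addition 1 conditional allele of Dsp, the gene of the desmosomal protein desmoplakin. The control mice, Wt1CreERT2:Rosa26mTmG, are labelled with no conditional Dsp allele. Cre is driven by Wt1, a gene of the epicardium, and its CreERT2 form acts only with tamoxifen, whose schedule is not given in the sources used here. Hearts were digested with collagenase II by Langendorff perfusion, cardiac myocytes were removed, and a sort for living EGFP-positive cells preceded droplet capture on the 10x Chromium. The labels call the sorted cells epicardial derived and do not say whether each library is 1 animal, so p-values measure the spread between these libraries, which may be technical.

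Interferons are cytokines of antiviral defence. Type I interferons bind the receptor chains Ifnar1 and Ifnar2, and signalling through the JAK kinases brings a complex that holds Irf9 to interferon-stimulated response elements in promoters. Type II interferon acts through other receptor chains and favours guanylate-binding proteins, immunity-related GTPases and antigen presentation. Endothelial cells with high levels of interferon-stimulated genes are a recurring finding in single-cell surveys of mouse organs, the heart included.

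The interferon-response cells numbered 219, 147 and 100 in Dsp_het libraries 1, 2 and 3, and 178, 171 and 314 in control libraries 1, 2 and 3. They carried 6711848 UMIs in all, and the other endothelial cells 35163246. The median depth was 4592 UMIs per interferon-response cell and 3713 per other endothelial cell, and it was higher in the interferon-response cells in each of the 6 libraries. Depth is part of what the rule measures, because more UMIs give more chances to detect a rule gene. In 4 groups of endothelial cells of equal size, ordered by depth, 5.82%, 10.3%, 12.2% and 18.6% met the rule. When each cell was thinned at random to 1000 UMIs, 257 cells (2.67%) still met it. Of the 13183 distinct barcodes, 1689 occurred in more than 1 library, and 158 interferon-response cells (14.0%) and 425 other endothelial cells (5.00%) carried such a barcode. Where a call beyond the rule was lost without these cells, the value among barcodes found in 1 library stands beside it. In the summed UMIs such barcodes weighed more than in the number of cells. Without them the interferon-response cells of Dsp_het library 3 fell from 100 cells and 983403 UMIs to 59 cells and 355641 UMIs. Those of control library 2 fell from 171 cells and 890852 UMIs to 125 cells and 507090 UMIs. Dsp_het library 1 changed least, from 219 cells and 849593 UMIs to 213 cells and 785636 UMIs.

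The 5 rule genes chose the cells, so their levels are a description. Isg15, a ubiquitin-like modifier, had a UMI in 90.5% of interferon-response cells and 17.5% of other endothelial cells. Rsad2 encodes viperin, an antiviral radical-SAM enzyme, and was detected in 84.8% and 36.5% of these cells. Ifit2 was detected in 67.3% of interferon-response cells and 10.1% of the others, Ifit1 in 64.2% and 4.84%, and Ifit3 in 61.2% and 5.54%. The Ifit proteins bind viral RNA. Rsad2 is thus the rule gene with the highest share outside the group, and Ifit1 the one with the lowest. All 5 genes were found together in 228 interferon-response cells (20.2%), and the most frequent trio was Ifit2, Isg15 and Rsad2, in 167 cells (14.8%). In CPM, the UMIs of a gene scaled to the same total of UMIs in every set, Isg15 stood at 872, 569 and 445 in the interferon-response cells of the Dsp_het libraries and at 673, 855 and 659 in those of the control libraries. In the other endothelial cells Isg15 stood at 84.9, 48.6 and 44.8 CPM in the Dsp_het libraries and at 64.4, 85.8 and 75.0 CPM in the control libraries. Just inside the threshold, 589 endothelial cells had 3 rule genes, with a median of 6 UMIs of them, and just outside it 1411 had 2 rule genes, with a median of 3 UMIs.

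Promoters are shown for 4 of the 5 rule genes, those that held the core of an interferon-stimulated response element. Each was read from the RefSeq promoter table of GRCm38.p6, 250 bases before to 50 bases after the gene's start, and capitals mark matches to GAAANNGAAA or, on the other strand, TTTCNNTTTC, the letters of that core. Windows of Ifit1 (chr19:34640639-34640938, plus strand), Ifit3 (chr19:34583279-34583578, plus strand), Isg15 (chr4:156200769-156201068, minus strand) and Rsad2 (chr12:26456403-26456702, minus strand) held at least 1 match and are printed 5′ to 3′ along each gene.
Ifit1: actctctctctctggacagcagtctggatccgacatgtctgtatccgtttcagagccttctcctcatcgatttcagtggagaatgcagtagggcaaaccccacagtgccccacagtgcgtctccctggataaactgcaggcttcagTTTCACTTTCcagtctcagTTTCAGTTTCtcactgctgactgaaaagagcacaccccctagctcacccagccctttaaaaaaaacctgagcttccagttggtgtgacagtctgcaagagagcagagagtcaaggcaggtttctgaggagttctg
Ifit3: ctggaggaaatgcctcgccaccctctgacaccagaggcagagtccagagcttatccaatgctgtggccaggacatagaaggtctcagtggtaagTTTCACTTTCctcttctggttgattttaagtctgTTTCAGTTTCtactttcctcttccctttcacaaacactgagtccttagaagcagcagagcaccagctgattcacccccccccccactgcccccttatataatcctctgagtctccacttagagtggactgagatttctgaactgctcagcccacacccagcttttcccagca
Isg15: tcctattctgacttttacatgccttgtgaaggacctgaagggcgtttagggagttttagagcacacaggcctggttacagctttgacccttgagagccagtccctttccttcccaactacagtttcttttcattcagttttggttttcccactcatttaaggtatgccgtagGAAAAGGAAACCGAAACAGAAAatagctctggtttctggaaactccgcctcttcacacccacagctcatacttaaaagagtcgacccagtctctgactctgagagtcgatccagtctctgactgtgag
Rsad2: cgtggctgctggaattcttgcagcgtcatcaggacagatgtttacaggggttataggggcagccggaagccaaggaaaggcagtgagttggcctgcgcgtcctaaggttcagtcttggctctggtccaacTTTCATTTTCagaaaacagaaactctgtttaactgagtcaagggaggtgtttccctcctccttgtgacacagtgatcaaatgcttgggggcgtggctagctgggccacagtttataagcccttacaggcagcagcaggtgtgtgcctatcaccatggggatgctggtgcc

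Matches began 104 and 85 bases before the start in Ifit1 and 156 and 122 bases before it in Ifit3. Isg15 held 3 overlapping matches, which began 78, 72 and 66 bases before its start, and Rsad2 held 1, at 120 bases. Both windows listed for Ifit2 held no match to these letters. Of the 27025 genes in the promoter table, some of them with several windows, 1079 (3.99%) held a match in at least 1 window. Ifit1, Ifit2 and Ifit3 lie side by side on chromosome 19 together with Ifit3b, a gene the rule did not use, and Rsad2 lies next to Cmpk2 on chromosome 12. Ifit3 and Ifit3b are related, and 4.47% of the 31-base words in the last 500 bases of Ifit3 transcripts also occur in Ifit3b transcripts, so the split of reads between them is uncertain to a small extent.

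The rule divides a graded pattern. With 0, 1, 2, 3, 4 and 5 rule genes detected, there were 3574, 3515, 1411, 589, 312 and 228 endothelial cells. Genes that the rule did not use were also higher along this series. Irf7, the transcription factor that amplifies the interferon response, stood at 31.4, 45.4, 64.8, 109, 180 and 242 CPM. Usp18, which removes Isg15 from proteins and damps the type I receptor, stood at 10.6, 13.9, 18.6, 38.0, 90.9 and 137 CPM. The restriction factors Ifitm3 and Bst2 started from high levels, with Ifitm3 at 2283 CPM with no rule gene and 4077 CPM with all 5, and Bst2 at 588 and 1374 CPM. The class I molecule H2-K1 stood at 2081 CPM with no rule gene and 2120 CPM with all 5, and its partner B2m at 2099 and 2217 CPM. These levels are pooled over the cells of all libraries and were not tested. Across single libraries and numbers of rule genes, H2-K1 lay between 1473 and 2825 CPM and B2m between 1649 and 3122 CPM.

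**Figure D1:**
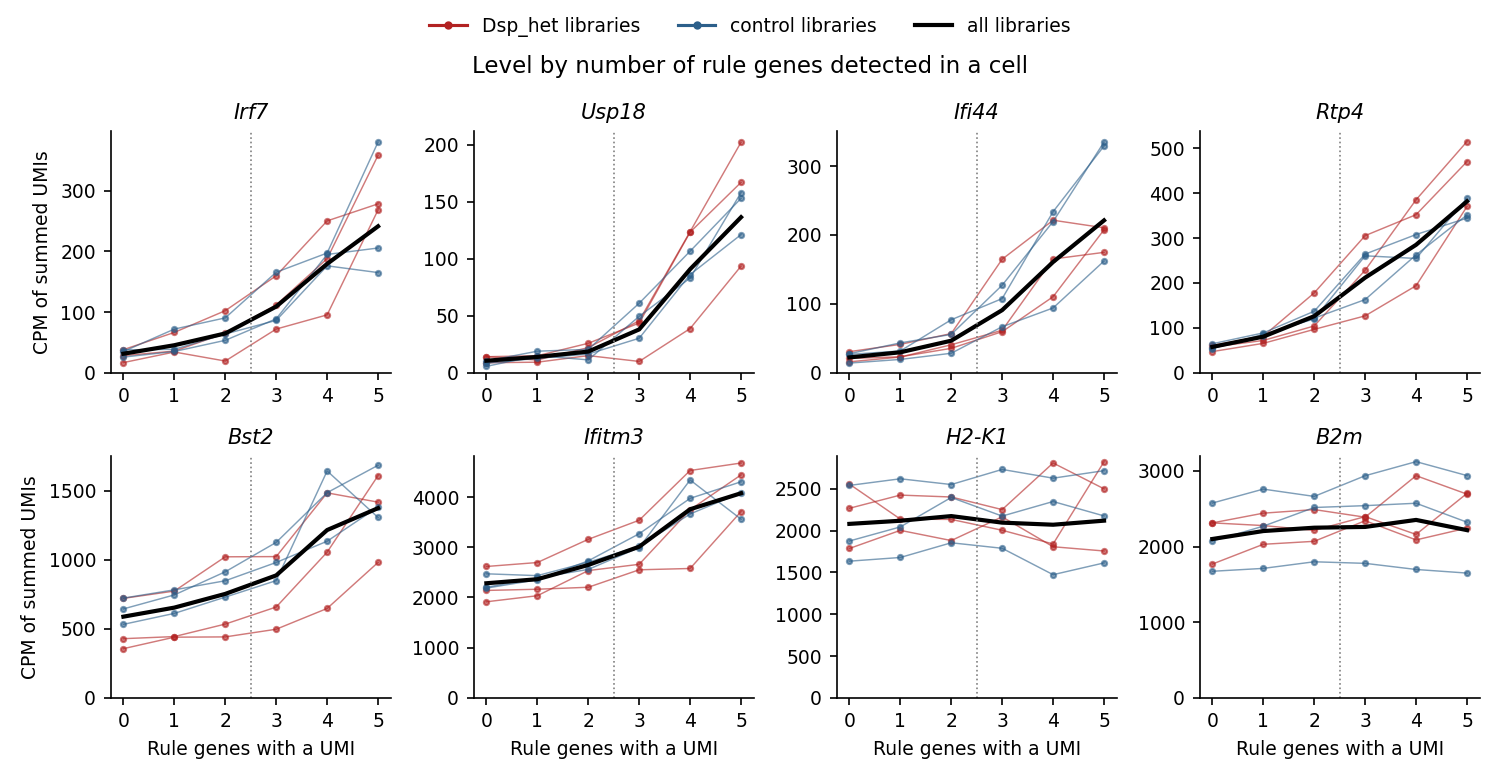
Level of 8 genes that the rule did not use (y axis, CPM of UMIs summed over cells, from 0) against the number of rule genes with a UMI in the cell (x axis, 0 to 5), for each Dsp_het library (red), each control library (blue) and all libraries (black); the dotted line marks the threshold of 3 rule genes. Over all libraries Irf7, Usp18, Ifi44, Rtp4, Bst2 and Ifitm3 climb along the series, while H2-K1 runs between 2071 and 2174 CPM and B2m between 2099 and 2352 CPM; single libraries spread more widely.

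Interferon-response cells were looked for among the other sorted cells by the same count of rule genes. Fibroblasts were gated on Col1a1 and Dcn, and epicardial cells on Upk3b, Msln and Krt19. Macrophages were gated on C1qa, C1qb and C1qc, and pericytes on Rgs5, Vtn and Kcnj8. The gates for fibroblasts, epicardial cells, macrophages and pericytes held 1122, 327, 150 and 60 cells. At least 3 rule genes were detected in 19 fibroblasts (1.69%, 95% Clopper-Pearson interval 1.02 to 2.63%), 25 epicardial cells (7.65%, 5.01 to 11.1%), 4 macrophages (2.67%, 0.731 to 6.69%) and 1 pericyte (1.67%, 0.0422 to 8.94%). These cells were mostly deeper than endothelial cells, with median depths of 7516.5 UMIs in fibroblasts, 8557 in epicardial cells and 9721.5 in macrophages, against 3817 in endothelial cells; pericytes had 2774. Thinned to 1000 UMIs, 2.67% of endothelial cells met the count (2.36 to 3.01%), against 0.535% of fibroblasts (0.196 to 1.16%) and 0.306% of epicardial cells (0.00774 to 1.69%). None of 150 macrophages (0 to 2.43%) and none of 60 pericytes (0 to 5.96%) did, where a limit of 3 counts would allow shares of up to 2.00% and 5.00%. At equal depth and pooled over libraries, the endothelial interval thus lay above those of fibroblasts and epicardial cells. Of these, 593 fibroblasts and 163 epicardial cells came from Dsp_het library 1. In control library 3 the thinned epicardial share was 3.13% (1 of 32 cells), against 2.95% of endothelial cells. In every other library the thinned epicardial share was 0%. All intervals cover counting error only. In barcodes under 500 UMIs, where free RNA may make up much of the signal, Isg15 stood at 116 CPM in Dsp_het library 2 (14 UMIs), 92.9 CPM in Dsp_het library 3 (28 UMIs), 162 CPM in control library 1 (5 UMIs) and 100 CPM in control library 2 (14 UMIs). Those levels lie above the other endothelial cells and below the interferon-response cells of the same libraries. Rsad2 stood at 116, 99.5, 64.9 and 71.6 CPM in the same barcodes, below the other endothelial cells of these libraries, at 254, 208, 229 and 249 CPM. Ifit1 stood at 33.2, 39.8, 97.4 and 43.0 CPM in these barcodes (4, 12, 3 and 6 UMIs). In those endothelial cells Ifit1 was lower, at 16.7, 13.8, 16.2 and 19.3 CPM. Ifit3 stood at 66.5, 53.1, 97.4 and 21.5 CPM (8, 16, 3 and 3 UMIs), above 16.1, 9.72, 12.3 and 12.5 CPM. Ifit2 stood at 58.2, 39.8, 32.5 and 35.8 CPM (7, 12, 1 and 5 UMIs), against 26.2, 27.6, 38.4 and 37.5 CPM. Dsp_het library 1 had no barcode under 500 UMIs, and control library 3 had 1, without a UMI of any rule gene.

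The share of endothelial cells that met the rule overlapped between the genotypes. It was 11.5%, 10.0% and 13.6% in the Dsp_het libraries and 8.83%, 13.7% and 13.8% in the control libraries, so the groups overlapped, with the lowest value in a control library. The means were 11.7% ± 1.79 in Dsp_het and 12.1% ± 2.86 in control libraries (SD, n = 3 each), a difference of -0.40 percentage points with an exact permutation p of 0.80, counting both sides. With 3 against 3 libraries the smallest p this test allows is 0.10. Thinned to 1000 UMIs, the shares were 3.37%, 1.98% and 1.90% in Dsp_het libraries and 2.13%, 3.21% and 2.95% in control libraries, with means of 2.42% ± 0.825 and 2.76% ± 0.561 (SD, n = 3 each, exact permutation p = 0.70). Without barcodes found in several libraries the means were 10.5% in Dsp_het and 10.9% in control libraries (exact permutation p = 0.80, n = 3 each). The sign of the main difference turned when a single library was left out, to 0.44 points without Dsp_het library 2, 0.39 points without control library 2 and 0.46 points without control library 3.

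**Figure D2:**
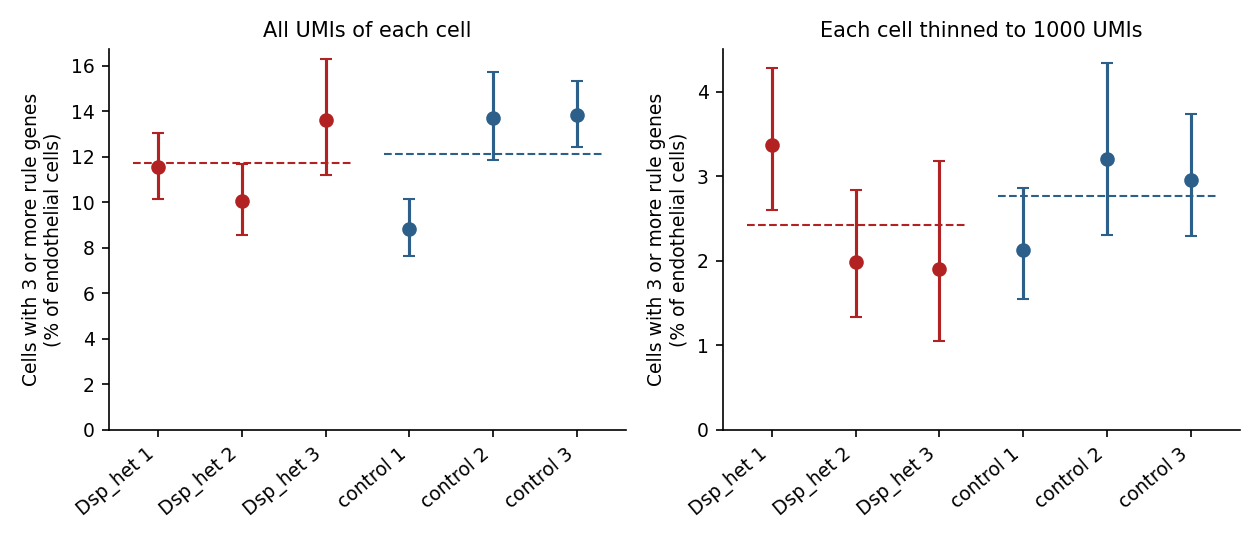
Share of endothelial cells with at least 3 rule genes (y axis, percent, from 0) in each Dsp_het (red) and control (blue) library, with 95% Clopper-Pearson intervals and dashed group means, for all UMIs (left) and after thinning each cell to 1000 UMIs (right). The 2 groups overlap in both panels, and thinning lowers the means to 2.42% in Dsp_het and 2.76% in control libraries.

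The targeted gene could not be read in these cells. Dsp had 0, 0 and 2 UMIs in the interferon-response cells of the Dsp_het libraries and 0, 1 and 3 UMIs in those of the control libraries. The position of the deleted exons is not given in the sources used here, so these counts do not check the allele. Wt1, whose regulatory sequence drives Cre, stood at 19.1, 21.1 and 31.4 CPM in interferon-response cells of Dsp_het libraries and at 23.7, 33.6 and 19.9 CPM in those of control libraries, after TMM normalization across sets (normalized CPM, the scale used from here on). The log2 fold change of Wt1 against other endothelial cells was -0.13 ± 0.13 (SE; edgeR quasi-likelihood test, adjusted p = 0.82). GFP averaged 3273 ± 665 normalized CPM in interferon-response cells and 3757 ± 431 in the others (SD, n = 6 libraries each), with a log2 fold change of -0.22 and an adjusted p of 0.051 (edgeR). GFP passed as lower without Dsp_het library 1 (-0.28, adjusted p = 0.00917) or control library 1 (-0.24, adjusted p = 0.0278). Both sets thus carried the reporter of the sort.

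Genes beyond the rule were compared between the interferon-response cells and the other endothelial cells of the same library. UMIs were summed per library and set, and edgeR's quasi-likelihood test was run with library as a block over 11037 genes, leaving out the 13 genes of the rule and the gate. At a Benjamini-Hochberg adjusted p under 0.05, 226 genes were higher in interferon-response cells (2.05% of those tested) and 88 were lower (0.797%). Of these, 163 and 55 moved the same way in all 6 libraries. Of the 226 higher genes, 104 belong to lists of interferon-induced genes, interferon-inducible GTPases or class I antigen presentation, and 100 belong to no list. DESeq2 called 154 higher and 27 lower. Restricting the data to barcodes found in 1 library left 186 higher and 53 lower, and drawing other endothelial cells matched on UMIs left 158 and 67. Of 78 named genes that passed, 21 lost the call with DESeq2, among them Irf1, Adar, Socs1, Mlkl, Ccl2, Bgn, Gja4, Apln and Cgnl1. Under matching on UMIs, 20 of the 75 that could be tested lost it, among barcodes found in 1 library 16 of 73, and without the library block 41 of 75.

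The interferon-induced genes rose together. Of 101 genes on that list, 87 could be tested, 76 were higher and none was lower, and the median log2 fold change was 0.98, against -0.00 over all genes tested. The list and the rule genes belong to the same response, so this shows how far the pattern extends beyond the 5 genes used. Among barcodes found in 1 library the count was 79 of 86, and against cells matched on UMIs it was 72 of 83. In single cells thinned to 1000 UMIs, the median interferon-response cell held 25 UMIs of the list and the median other endothelial cell 16.

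The largest increase was that of Oasl1, an oligoadenylate synthetase-like protein that in mouse restrains Irf7 production. Its normalized CPM were 76.3, 17.2 and 25.5 in interferon-response cells of the Dsp_het libraries and 31.2, 39.2 and 25.4 in those of the control libraries. In other endothelial cells the same libraries gave 3.89, 2.49 and 1.26 in Dsp_het and 2.04, 4.13 and 1.68 in control. The sets did not overlap, and the log2 fold change was 3.77 ± 0.21 (SE; edgeR, adjusted p = 1.41e-13). Ifit3b, the neighbour of Ifit3, followed with 155, 102 and 140 normalized CPM in interferon-response cells of Dsp_het libraries and 166, 261 and 112 in those of control libraries. Its values in other endothelial cells were 17.5, 10.7 and 18.5 in Dsp_het and 17.3, 29.1 and 10.7 in control libraries, which gives a log2 fold change of 3.19 ± 0.09 (adjusted p = 4.83e-20, edgeR). Usp18 averaged 80.1 ± 21.8 and 13.3 ± 2.41 in the same 2 sets (SD, n = 6), with Dsp_het library 3 lowest among the interferon-response cells at 39.3. The log2 fold change of Usp18 was 2.58.

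Other genes among the 15 largest increases act against viral nucleic acid. Oas1a (log2 fold change 1.92) makes the oligoadenylates that activate RNase L, Oasl2 (1.93) is its relative, and Eif2ak2 (1.52) encodes the kinase PKR, which halts translation. Zbp1 (1.80) senses Z-form nucleic acid, and Ifi211 (1.77), Ifi208 (1.58) and Ifi204 (1.49) belong to the family of DNA-binding p200 proteins. Cmpk2 (2.04), a mitochondrial nucleotide kinase encoded beside Rsad2, averaged 117 ± 20.7 normalized CPM in interferon-response cells and 28.2 ± 4.76 in the others. Ifi44 (2.32), Rtp4 (1.82) and Ifi27l2a (1.37) complete the set with Irf7 (1.94). Each of these was higher in all 6 libraries, which the choice of the largest increases required. Some of them resemble other genes in the bases near the transcript end that are counted, so that 45.1% of the 31-base words of Oas1a also occur in Oas1g and 32.6% of those of Ifi211 in Mndal, and their split between copies is uncertain.

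**Figure D3:**
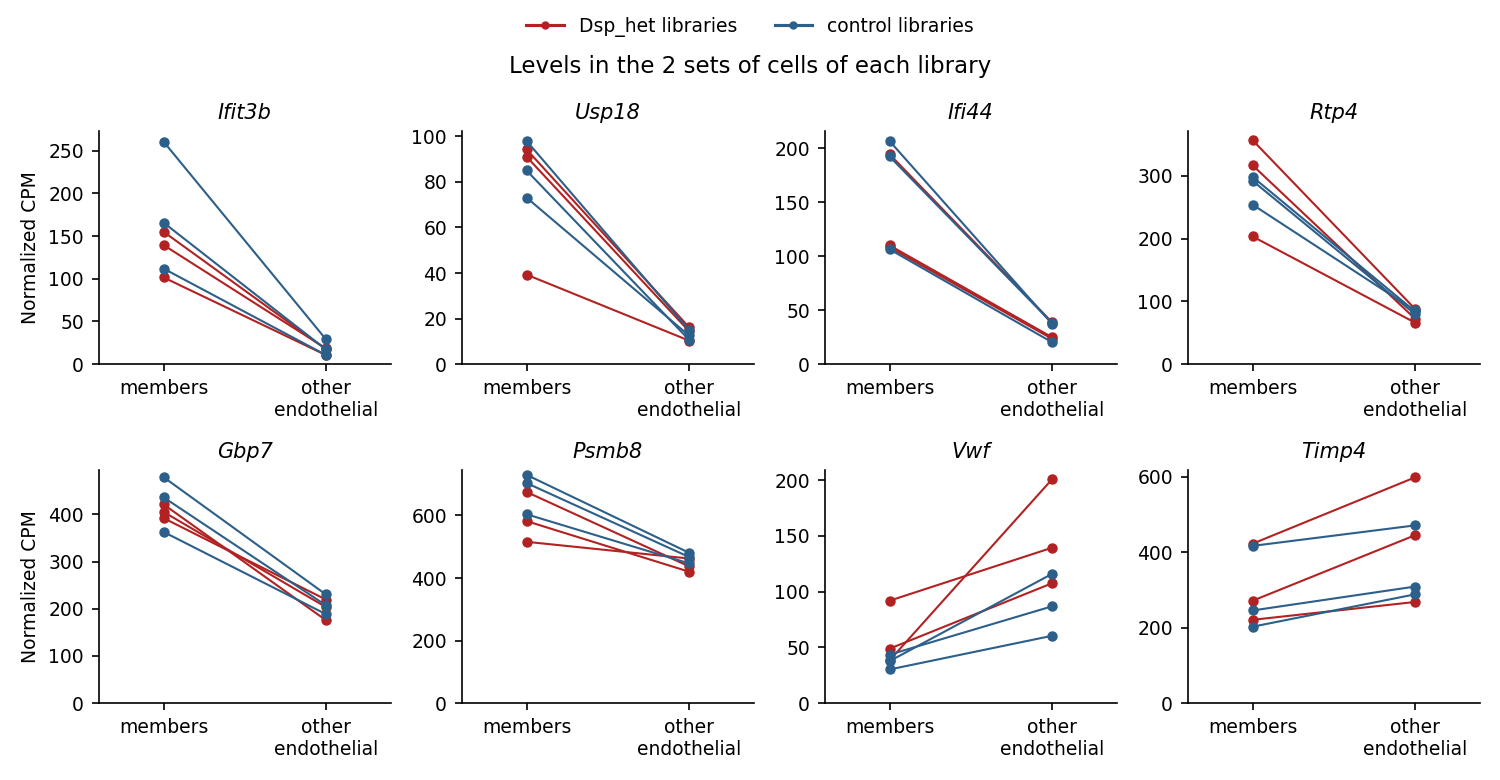
Normalized CPM (y axis, from 0) of 8 genes in interferon-response cells (members, left) and other endothelial cells (right) of each Dsp_het (red) and control (blue) library, joined by library. Ifit3b, Usp18, Ifi44, Rtp4, Gbp7 and Psmb8 are higher in members in all 6 libraries, and Vwf and Timp4 lower in all 6.

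Genes of interferon signalling passed below the receptor, and none passed at the receptor itself. None of the 5 tested receptor genes passed the test. Ifnar1 averaged 50.2 ± 8.63 normalized CPM in interferon-response cells and 48.2 ± 3.83 in the others (SD, n = 6), a log2 fold change of 0.03 ± 0.10, and Ifnar2 averaged 157 ± 24.04 and 154 ± 8.82, a log2 fold change of 0.01 ± 0.06 (edgeR, adjusted p = 0.96 and 0.99). Below the receptor, Irf9 was higher by 1.12 ± 0.08 on the log2 scale (SE) and Stat2 by 1.17, each in all 6 libraries. Irf9 stood at 148, 141 and 96.3 normalized CPM in interferon-response cells of Dsp_het libraries and at 144, 145 and 109 in those of control libraries. In other endothelial cells Irf9 stood at 59.8, 53.1 and 59.2 in Dsp_het and 65.7, 62.0 and 56.3 in control libraries, below every value of the interferon-response cells. Irf1, another interferon regulatory factor, passed with a small log2 fold change of 0.22, and its call was lost without any of the Dsp_het libraries (0.18 without library 1, 0.19 without library 2 and 0.21 without library 3). In all, 5 of the 12 tested genes of JAK-STAT and IRF signalling were higher and none was lower, with a list median of 0.13.

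Transcripts of interferons themselves were nearly absent. Over 13 interferon genes, 1 UMI was counted in interferon-response cells and 1 in the other endothelial cells. A level of 3 counts in the UMIs of the interferon-response cells would be 0.447 CPM. Among 11 tested negative regulators, 5 were higher. Besides Usp18 these were Isg20, an exonuclease (log2 fold change 1.34), Samhd1, which depletes nucleotides (0.57), Socs1, an inhibitor of the receptor kinases (0.58), and Adar, which edits double-stranded RNA (0.54). The call of Socs1 was lost without Dsp_het library 1 (0.52) and without control library 3 (0.57), and that of Adar without Dsp_het library 1 (0.49). Among 11 nucleic acid sensors, 4 were higher, the RNA helicases Dhx58 (2.07), Ifih1 (1.09) and Ddx58 (0.80) and, again, Zbp1.

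The interferon-inducible GTPases rose with the other induced genes. Of 22 tested, 20 were higher and none lower, with a median log2 fold change of 0.95. Guanylate-binding proteins and immunity-related GTPases coat and break vacuoles that hold microbes. Gbp7 stood at 421, 405 and 392 normalized CPM in interferon-response cells of Dsp_het libraries and at 436, 479 and 363 in those of control libraries. In the other endothelial cells Gbp7 stood at 176, 203 and 219 in Dsp_het and at 207, 230 and 189 in control libraries, and the sets did not overlap (log2 fold change 1.02 ± 0.05, edgeR adjusted p = 2.69e-15). Gbp3 (1.22), Igtp (1.24), Irgm1 (1.26), Ifi47 (1.28) and Iigp1 (0.91) were each higher in all 6 libraries.

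Class I antigen presentation moved less and in part. Of 25 tested genes 12 were higher and none lower, and the median log2 fold change was 0.21. The genes that passed included the immunoproteasome subunits Psmb8 (0.48) and Psmb10 (0.33), the proteasome activators Psme1 (0.29) and Psme2 (0.38) and the peptide transporter Tap1 (0.52). Psmb8 averaged 635 ± 81.6 normalized CPM in interferon-response cells and 453 ± 22.02 in the others (SD, n = 6). Psme2b passed with 0.94, but shares 68.5% of its terminal 31-base words with Psme2. Of 7 tested class II genes 2 were lower and none higher, and the log2 fold changes of the list ran between -0.97 and 0.40. Cd74, the invariant chain, had a log2 fold change of -0.73 and H2-Eb1 one of -0.97, both lower in all 6 libraries. H2-Eb1 lost its call with at least 4 of 5 rule genes and by the rule after thinning to 1000 UMIs. Macrophage markers, from cells that carry class II, summed to between 5.89 and 30.1 CPM in interferon-response cells and between 6.08 and 58.1 CPM in the others, with 1 of 12, Adgre1, at 0 in the interferon-response cells. Their part in the result was not tested.

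**Figure D4:**
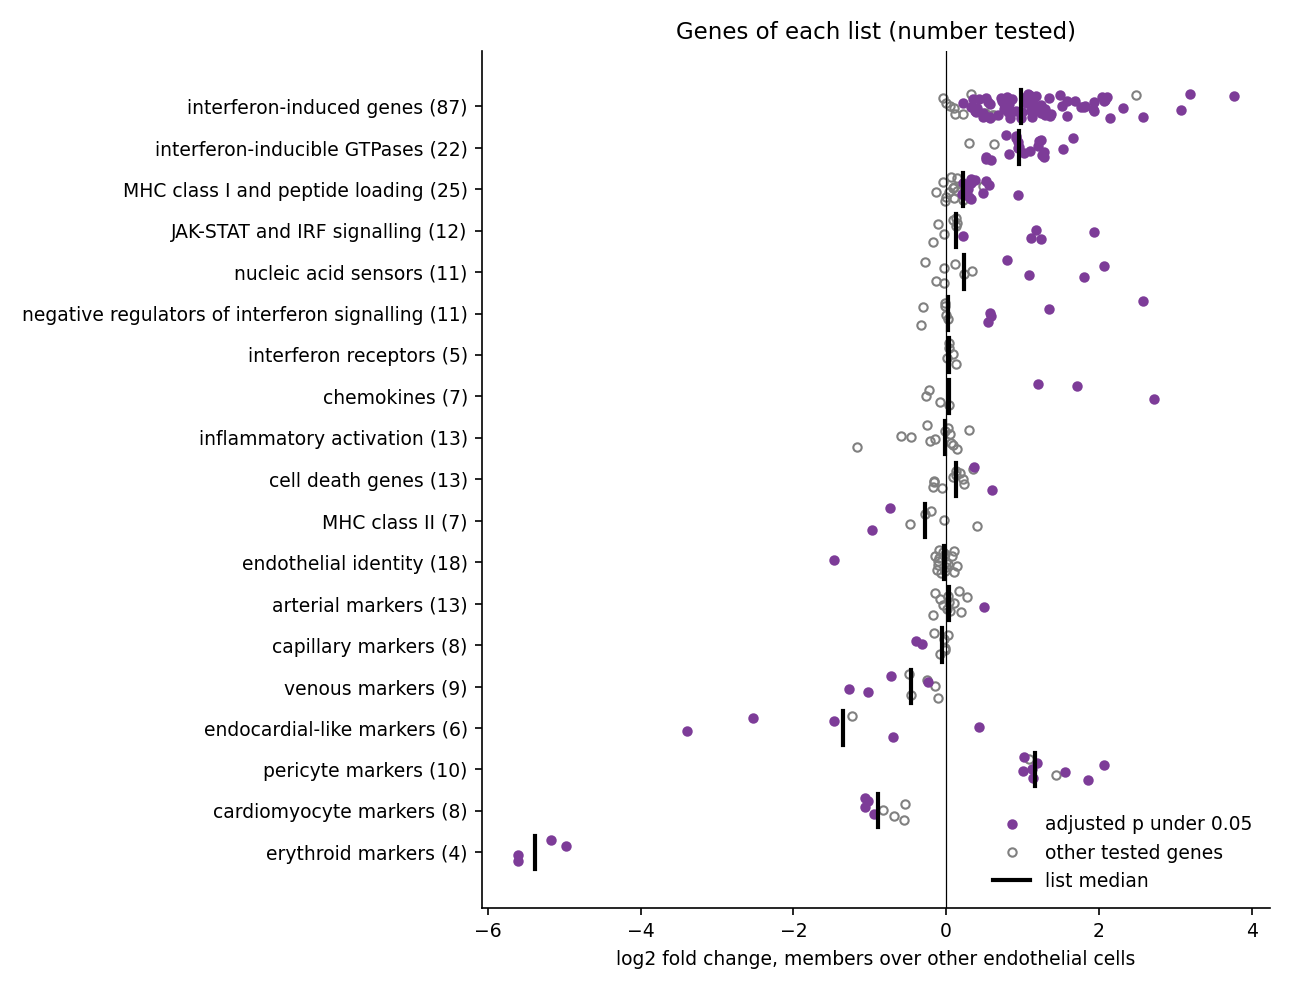
Log2 fold change, interferon-response cells (members) over other endothelial cells (x axis), of each tested gene of 19 gene lists (rows, number tested in parentheses); filled points passed an adjusted p of 0.05, open points did not, and black bars are list medians. The medians of interferon-induced genes and GTPases lie at 0.98 and 0.95, those of interferon receptors and inflammatory activation near 0.

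Chemokines divided. Cxcl10 and Cxcl9, which draw T cells through Cxcr3, were higher. Cxcl10 was low in absolute terms, with 17.9, 3.96 and 19.6 normalized CPM in interferon-response cells of Dsp_het libraries and 8.61, 8.95 and 8.33 in those of control libraries. The other endothelial cells had 1.42, 0.71 and 0.76 in Dsp_het and 3.67, 2.30 and 1.08 in control libraries (log2 fold change 2.72 ± 0.37, edgeR adjusted p = 8.42e-06). Cxcl9 (1.20) was higher in 5 of 6 libraries, and control library 2 had 61.5 in interferon-response cells and 63.4 in the others. Ccl2, a monocyte attractant, passed with 1.72 but was higher in only 3 of 6 libraries, and its call was lost without Dsp_het library 1 (1.27), Dsp_het library 3 (1.30) or control library 2 (1.45), and among barcodes found in 1 library (0.78). The remaining 4 of 7 tested chemokines did not pass. None of 13 tested genes of inflammatory activation, such as adhesion molecules and NF-kappaB feedback genes, passed, with a median of -0.02. Of 13 cell death genes, Tnfsf10, the death ligand TRAIL, passed with 0.36 and Mlkl, the effector of necroptosis, with 0.61; the call of Mlkl was lost without control library 1 (0.54) or control library 3 (0.58).

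Endothelial identity genes mostly did not pass, while part of the venous and endocardial-like markers were lower. Of 18 tested genes of endothelial identity, 1 passed, Plvap, a protein of fenestral diaphragms, with a log2 fold change of -1.47. Plvap lost its call with at least 4 of 5 rule genes and by the rule after thinning to 1000 UMIs. Of 9 venous markers 4 were lower and none higher, with a median of -0.45. Vwf, the clotting factor carrier stored in venous and large-vessel endothelium, stood at 91.9, 48.8 and 38.3 normalized CPM in interferon-response cells of Dsp_het libraries and at 37.7, 30.2 and 43.5 in those of control libraries. In other endothelial cells it stood at 139, 107 and 201 in Dsp_het and at 116, 60.4 and 86.8 in control libraries. Vwf was lower in each library, although the ranges of the sets overlapped (log2 fold change -1.27 ± 0.13, edgeR adjusted p = 2.88e-08). Bgn (-0.72) and Apoe (-0.24) were lower in 5 of 6 libraries. The call of Bgn was lost without Dsp_het library 3 (-0.60), and that of Apoe without Dsp_het library 1 (-0.21) or control library 2 (-0.21) and among barcodes found in 1 library (-0.15). Among those barcodes 4 of 9 venous markers passed as lower, Vwf (-1.54) and Bgn (-1.60) among them.

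Of 6 tested endocardial-like markers 4 were lower, with a median of -1.35. Cytl1 averaged 1.76 ± 2.88 normalized CPM in interferon-response cells and 17.8 ± 14.8 in the others (SD, n = 6), and was lower in all 6 libraries. Plvap stands on this list too, and Cpe (-0.69) and Tmem108 (-2.52) were also lower, the call of Tmem108 being lost without Dsp_het library 1 (-1.96). Plvap, Cpe and Tmem108 all lost their calls with at least 4 of 5 rule genes. All of them also lost their calls by the rule after thinning to 1000 UMIs. Cgnl1, on the same list, passed in the other direction (0.43), and its call was lost without Dsp_het library 2 (0.37), control library 2 (0.39) or control library 3 (0.38), and among barcodes found in 1 library (0.16). Capillary markers were largely level, with a median of -0.05 over 8 tested genes, of which Timp4 (-0.40) and Aqp1 (-0.31), a water channel, were lower. Of 13 arterial and 12 angiogenic-like markers 1 each passed, Gja4 (0.49) and Apln (0.47). The call of Gja4 was lost without Dsp_het library 2 (0.50) or 3 (0.44) and without control library 2 (0.36) or 3 (0.48), and among barcodes found in 1 library (0.30). That of Apln was lost without Dsp_het library 1 (0.43) or 2 (0.49) and without control library 1 (0.41) or 3 (0.38), and among barcodes found in 1 library (0.42).

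The same question was asked of single cells, by the share of thinned cells with at least 1 UMI of the markers of a vessel type. Capillary markers were found in 93.8% ± 2.61 of interferon-response cells and 90.7% ± 2.53 of other endothelial cells (SD, n = 6 libraries), venous markers in 8.96% ± 1.89 and 11.7% ± 3.497, and arterial markers in 26.4% ± 3.46 and 24.1% ± 1.75. The venous share was lower in interferon-response cells in all 6 libraries, with differences of -5.48 to -0.30 percentage points. Its exact sign-flip p of 0.03125, counting both sides, is the smallest that 6 libraries allow and came to 0.1875 after adjustment over the 6 vessel types. How far the libraries agreed changed with the setting. Without thinning, the venous difference was -1.27 points, with 3 libraries higher and 3 lower. At 2 or more UMIs of the markers it was -1.29 points, with 1 higher and 5 lower. Against cells of 0 rule genes it was -5.35 points, lower in all 6 libraries (exact sign-flip p = 0.03125, adjusted 0.09375). No vessel type passed after adjustment. Angiogenic-like, endocardial-like and lymphatic markers were found in 9.68%, 3.64% and 0.434% of interferon-response cells and in 10.5%, 4.76% and 0.336% of the others.

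Also among the largest decreases were Ctsh, a lysosomal cysteine protease (log2 fold change -1.89), Fam174b (-1.38) and Eln, the gene of elastin (-1.10). Each was lower in all 6 libraries, which the choice of the largest decreases required. The immediate early genes Fos (-0.47) and Ier3 (-0.34) were lower as well, 2 of 17 on that list, with none higher. Fos differs widely between libraries, at 109, 75.2 and 87.4 normalized CPM in interferon-response cells of Dsp_het libraries, 54.9, 169 and 188 in those of control libraries, 194, 116 and 153 in other endothelial cells of Dsp_het libraries and 106, 235 and 189 in those of control libraries. None of 11 heat shock genes and none of 5 tested lymphatic markers passed. The 7 lymphatic markers summed to 204 CPM in interferon-response cells of Dsp_het library 1 and 430 CPM in those of control library 2. In the other endothelial cells of these libraries they summed to 43.4 and 44.3 CPM. Without thinning, the lymphatic vessel markers were found in only 0.913% and 1.75% of interferon-response cells of these libraries, against 1.49% and 0.186% of the others. Over the 6 libraries these shares averaged 1.31% and 0.919%, higher in 3 libraries and lower in 3. How many cells carry the sums was not tested.

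Markers of other cell types moved with the comparison. Of 10 pericyte markers, 8 were higher in interferon-response cells and none lower, with a median log2 fold change of 1.16. They included Rgs5 (1.02), Kcnj8 (1.19), Vtn (1.56), Abcc9 (1.12), Higd1b (1.00) and Acta2 (2.06). The 10 markers summed to 166, 441 and 1406 CPM in interferon-response cells of Dsp_het libraries and 97.8, 907 and 997 CPM in those of control libraries. In other endothelial cells they summed to 47.4, 212 and 479 CPM in Dsp_het and 147, 277 and 550 CPM in control libraries, so control library 1 ran against the rest. More than 1 UMI of 9 mural genes was held by 16.8% of interferon-response cells and 10.1% of the others. Against other endothelial cells matched on UMIs none of 9 tested pericyte markers passed (median 0.44), among barcodes found in 1 library none of 8 was higher and 1 was lower (median -0.09; Rgs5 0.08, Kcnj8 0.12, Vtn -0.26, Abcc9 -0.26 and Higd1b -0.63), and by the rule after thinning to 1000 UMIs none of 9 was higher and 3 were lower. With cells of more than 1 mural UMI left out, the interferon-induced genes still gave 77 of 86 higher. The part of mural transcripts in other differences was not tested beyond these values. Of 20 cell cycle genes, 2 were higher, Cenpf (1.75) and Ube2c (2.21), each in 3 of 6 libraries, and both calls were lost without control library 1 (1.25 and 1.05) or control library 3 (1.23 and 1.96). The call of Cenpf was also lost among barcodes found in 1 library (1.39). The median of the cell cycle list was 0.73, with 17 genes above 0 and 3 below. Tomato, which unrecombined cells express, stood at 0, 9.24 and 40.3 normalized CPM in interferon-response cells of Dsp_het libraries and 10.8, 8.95 and 29.2 in those of control libraries. In other endothelial cells it stood at 0.354, 4.26 and 14.4 in Dsp_het and 7.48, 4.59 and 16.1 in control libraries (log2 fold change 1.00). Its call was lost without Dsp_het library 3 (0.82), and among barcodes found in 1 library the value was -0.11.

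Haemoglobin and part of the cardiomyocyte transcripts were lower in the interferon-response cells in edgeR, and most of these calls depended on the processing. All 4 tested haemoglobin genes passed, with a median of -5.39. DESeq2 called none of the 4. Among barcodes found in 1 library only Hba-a1 (-1.67) and Hbb-bs (-1.78) could be tested, and both passed. In other endothelial cells the erythroid markers summed to 18.6, 1503 and 18.2 CPM in the Dsp_het libraries and to 30.4, 14.9 and 1291 CPM in the control libraries, so Dsp_het library 2 and control library 3 hold nearly all of them. In interferon-response cells they summed to between 11.2 and 34.4 CPM. Hba-a2 (-5.60) shares 423 of its 470 terminal 31-base words with Hba-a1 (-5.18). Hbb-bs (-4.98) was lower in only 3 of 6 libraries, Hbb-bt (-5.60) in 5. Of 8 cardiomyocyte markers 4 were lower, Myl2 (-1.06), Tnnc1 (-1.06), Mb (-1.03) and Tnni3 (-0.94), and Mb (-0.74), Tnnc1 (-0.86) and Tnni3 (-0.63) lost their calls without Dsp_het library 2. Among barcodes found in 1 library none of the 8 passed, with Myl2 at -0.45, Tnnc1 at -0.66, Mb at -0.42 and Tnni3 at -0.34. Against cells matched on UMIs these 4 did not pass either (-0.80, -0.53, -1.13 and -0.66). The part of these transcripts in the other differences was not tested. Markers of T and NK cells were at or near 0, with 6 of 9, among them Cd3e, Cd3d and Nkg7, at 0 UMIs in the interferon-response cells. B cell markers summed to at most 1.31 CPM there except in Dsp_het library 3, where they reached 33.6 CPM.

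The element found in 4 of the 5 rule genes was counted in the promoters of the genes that passed, a gene counting as 1 however many windows it had. Promoter windows were listed for 171 of the 226 higher genes, and 55 of these (32.2%) held a match to the element spelled out above, against 327 of 8589 tested genes with a window (3.81%). Of 61 lower genes with a window, 1 held a match (1.64%). Higher genes on the interferon, GTPase or class I lists held it in 39 of 79 cases (49.4%), and the other higher genes in 16 of 92 (17.4%). Among genes named above, Ifit3b held 2 matches, which began 188 and 154 bases before its start, and Cxcl10 held 1, at 213 bases. The windows of Irf7, Ifi44, Oasl1 and Cmpk2 held none. A match describes these letters in these windows and is no measure of binding.

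The genotypes were then compared within the interferon-response cells. No gene of 7891 tested passed in either direction (0.0% higher and 0.0% lower, edgeR), 305 had an unadjusted p under 0.05, and DESeq2 also called none, with 101 at an unadjusted p under 0.05. Of the interferon-induced genes 38 of 82 lay above and 44 below 0, with a median log2 fold change, Dsp_het over control, of -0.01, against 0.00 over all genes. Irf7 had 213, 169 and 125 normalized CPM in Dsp_het libraries and 152, 227 and 134 in control libraries, with means of 169 ± 44.1 and 171 ± 49.0 (SD, n = 3 each). Its log2 fold change was -0.00 ± 0.21 (SE). Irf9 (-0.03), Ifnar1 (-0.05), Ifnar2 (-0.04) and Wt1 (-0.02) did not pass either, nor did GFP, at 3673 ± 687 in Dsp_het and 2827 ± 311 in control libraries (log2 fold change 0.38). Of 19 GTPases, 5 lay above and 14 below 0, with a median of -0.20, and of 25 class I genes 7 above and 18 below, with a median of -0.09. All 3 tested class II genes lay above 0, with a median of 0.95, which was 0.36 without Dsp_het library 3. In the other endothelial cells all 7 class II genes lay above 0, with a median of 1.00, which was 0.37 without Dsp_het library 3. Over the lists with at least 5 genes tested in interferon-response cells, medians ran between -0.63 (pericyte markers) and 0.35 (venous markers). No gene of these lists passed.

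The genes with the smallest p in each direction all missed the threshold. Lrrc3b had 63.99, 68.1 and 66.0 normalized CPM in interferon-response cells of Dsp_het libraries and 26.7, 42.2 and 26.8 in those of control libraries. Its log2 fold change was 1.08 ± 0.22, with an adjusted p of 0.85 (edgeR). Thbd, the anticoagulant receptor thrombomodulin, averaged 281 ± 66.7 in Dsp_het and 168 ± 8.55 in control libraries (SD, n = 3 each), a log2 fold change of 0.73. Syt7 (0.99), Tbx3 (0.85), a T-box transcription factor, and Slc26a10 (0.77) lay in the same direction. In the other, Tgtp2, an immunity-related GTPase, had 59.2, 51.1 and 48.3 in Dsp_het and 100, 127 and 66.3 in control libraries, a log2 fold change of -0.85, and its terminal 31-base words all occur in Tgtp1 as well. Spata7 (-1.75), Wdfy1 (-1.05), Apol10b (-0.67) and Ube2s (-0.58) were the others. Without control library 1, Spata7 passed (-2.14, adjusted p = 0.00877, edgeR).

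**Figure D5:**
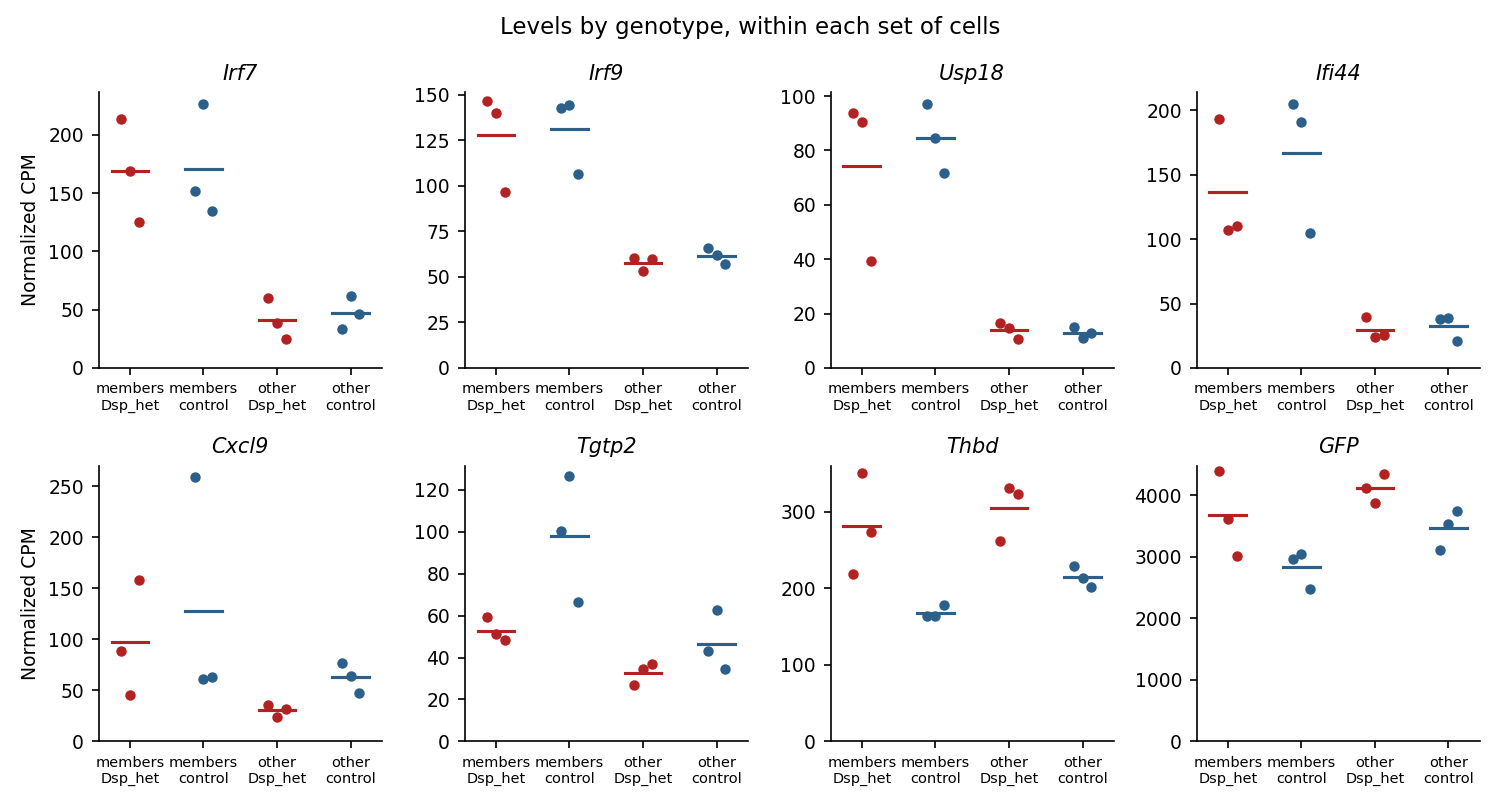
Normalized CPM (y axis, from 0) of 8 genes in Dsp_het (red) and control (blue) libraries, within interferon-response cells (members) and within other endothelial cells, which were normalized separately; points are libraries and bars are means of 3. Members lie above other cells for Irf7, Irf9, Usp18 and Ifi44 in both genotypes, and no gene shown passed between genotypes in edgeR.

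In the other endothelial cells, none of 11168 genes passed between genotypes (0.0% in each direction, edgeR), with 524 at an unadjusted p under 0.05, while DESeq2 called 16 higher and 3 lower. The smallest p-values were those of Mfap5 (log2 fold change 1.62), Prss23 (1.21), C3 (1.25), Cryab (1.03) and Pttg1 (0.78) upward and Wdfy1 (-1.28), Cxcl9 (-1.05), Nrarp (-0.50), Hlx (-0.47) and Ccdc69 (-0.91) downward. Without Dsp_het library 2 edgeR called 15 higher and none lower, among them Mfap5 (1.74, adjusted p = 0.0309) and Prss23 (1.30, adjusted p = 0.0338). Irf7 (-0.16), Irf9 (-0.10), Ifnar1 (0.10), Ifnar2 (-0.11), Wt1 (-0.06), GFP (0.25) and Tomato (-0.72) missed the threshold.

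The difference of the genotype effect between the 2 sets was tested itself, as an interaction. None of 11037 genes passed (0.0% in each direction, edgeR), with 458 at an unadjusted p under 0.05. The interaction was 0.21 for Irf7, 0.06 for Irf9, -0.13 for Ifnar1, 0.08 for Ifnar2, 0.03 for Wt1, 0.11 for GFP and 0.55 for Tomato on the log2 scale. Among the smallest p-values were those of Sema3g (1.18), Hist1h1b (3.74), Ccl2 (2.67) and Igkc (9.90) upward and Pi16 (-1.08), Cd9 (-0.40), Commd10 (-1.26), Ptn (-1.91) and Tnni3 (-1.67) downward, all with an adjusted p of 0.76 (edgeR). Hist1h1b passed without control library 3 (7.91), Ccl2 without control library 2 (4.35) and Ptn without control library 1 (-2.32).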

How the data were processed

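Single-cell RNA counts were taken as the authors deposited them, as whole-number UMI counts of 31055 genes in 18283 barcodes, whose suffix names 1 of 6 libraries. GRCm38 and Seurat are named in the submitters' processing notes, without versions. Aligner and counter: not given in the sources used here. Gene symbols and barcodes, in the other deposited columns, are labels. The matrix sum of each barcode equalled the deposited total.

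Members and gene lists were chosen with earlier results of these data known. UMIs were summed per library and set (at least 10 cells). edgeR 4.0.16 (R 4.3.3) was run with TMM scaling, filterByExpr at a minimum count of 10, the quasi-likelihood test and Benjamini-Hochberg adjustment, with library as a block between the sets. The SE printed with an edgeR log2 fold change was worked back from the test. It is the absolute fold change divided by the square root of the F statistic. DESeq2 1.42.0 was an alternative. Shares were compared by exact permutation over libraries, with intervals at 95%. The scripts were tested on simulated data. No doublet caller was run.

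Named genes are the 15 largest increases and 8 largest decreases that passed with the same direction in every library and a mean of at least 20 CPM, up to 6 members per list that passed, and a fixed set (the receptors, Irf7, Irf9, Dsp, Wt1, GFP and Tomato). Between genotypes they are the 5 smallest p in each direction and the fixed set. Some genes that meet the rule are not reported here.

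Total UMIs per library ran between 7573157 and 17083660, and libraries kept between 1095 and 2881 cells. Alternatives were RLE scaling, no filter on low counts, leaving out each library, other thresholds of the rule, matching on UMIs, no library block, a replicate block and barcodes found in 1 library. The filters on mural UMIs, on shared barcodes between the sets and the rule at 1000 UMIs were added after seeing the data. Sex as a covariate was planned within interferon-response cells, where it called no gene. Within the other endothelial cells it was added after seeing the data.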

Additional observations from a re-analysis of the deposited data

Results flagged for a closer look

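Of 84 results, the log2 ratio of interferon-response cells over other endothelial cells (1 CPM added to both) had 1 library far from the other 5 in 5 genes. Chance alone gives such a library in about 1 in 20 results. Bgn stood at 0.55 in control library 2, against -1.17 to -0.61 in the other libraries. Hba-a2 stood at -5.73 in Dsp_het library 2, against -2.26 to -0.55 in the others. Higd1b, a pericyte marker, stood at -1.06 in control library 1, against 0.80 to 1.53. Irgm1 stood at 0.40 in Dsp_het library 3, against 1.14 to 1.57, and Oasl2 at 2.36 in control library 1, against 1.72 to 1.84.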

How the results depend on the processing

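Between the sets, 226 genes were higher in the main test and 98 without the library block. For the 88 lower genes, DESeq2 gave 27, no filter on low counts 189, a comparison with cells of 0 rule genes 186, at least 4 of 5 rule genes 54, barcodes found in 1 library 53, the rule at 1000 UMIs 149, no library block 2, and leaving out a library 50 to 96. Between genotypes within interferon-response cells, no filter gave 20 higher and 19 lower, and leaving out a library 0 to 1 and 0 to 3. Within other endothelial cells, DESeq2 gave 16 and 3, no filter 81 and 19, sex as a covariate 8 and 2, and leaving out a library 0 to 15 higher. For the interaction, no filter gave 10 and 13, barcodes found in 1 library 3 and 2, the mural filter 2 lower, and leaving out a library 0 to 2 and 0 to 4. The cause of these shifts was not tested.

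Labels do not say that replicate numbers pair libraries. Same-numbered libraries correlated at 0.16, -0.10 and -0.06 in interferon-response cells and at 0.22, -0.21 and -0.16 in the others, so they were not taken as pairs. Dsp_het library 2 correlated best with control library 3 (0.16 and 0.36), and Dsp_het library 3 with control library 2 (0.20 and 0.19). Xist, a transcript of female cells, stood at 576 CPM in Dsp_het library 2 and 458 CPM in control library 3, and at 12.2 CPM or less in the others. With a replicate block the others gave 2 higher and 1 lower genes, interferon-response cells none, and the share difference an exact p of 0.75.

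Signs turned as follows. The share difference ran between -2.04 and 0.46 points when a library was left out. Of vessel differences, arterial was -0.17 at 2 UMIs or more, angiogenic-like 0.49 there, 6.61 without thinning and -1.32 to 0.26 when a library was left out, endocardial-like 0.042 without thinning, and lymphatic -0.014 against cells of 0 rule genes and -0.052 to 0.21 when a library was left out. By the rule at 1000 UMIs the log2 fold change was -0.29 for Ccl2, -0.26 for Apln, -0.0057 for Cgnl1, -1.27 for Rgs5, -9.16 for Acta2, -0.26 for Abcc9, -1.08 for Higd1b, -0.28 for Tomato and 0.026 for GFP. Among barcodes found in 1 library it was -0.26 for Vtn, -0.26 for Abcc9, -0.63 for Higd1b and -0.11 for Tomato, and with DESeq2 -0.0254 for Acta2. Ifnar1 was -0.0034 with no filter, -0.043 at 4 of 5 rule genes and -0.0251 to 0.11 when a library was left out. Ifnar2 was -0.028 with no filter, -0.0397 matched on UMIs and -0.068 to 0.056 when a library was left out. Wt1 was 0.017 against cells of 0 rule genes and 0.061 at 4 of 5 rule genes.

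Between genotypes within interferon-response cells, leaving out a library gave -0.27 to 0.14 for Ifnar1, -0.23 to 0.090 for Ifnar2, -0.20 to 0.24 for Irf7, -0.18 to 0.15 for Irf9 and -0.30 to 0.19 for Wt1. The mural filter gave 0.0093 for Irf7 and 0.055 for Irf9, and barcodes found in 1 library 0.066 for Irf7 and 0.14 for Wt1. Within the others, leaving out a library gave -0.54 to 0.082 for Irf7 and -0.21 to 0.021 for Wt1, and the mural filter 0.027 for Wt1. For the interaction it gave -0.12 to 0.20 for Ifnar2, -0.064 to 0.27 for Irf9, -0.31 to 0.31 for Wt1 and -0.035 to 0.29 for GFP. The mural filter gave -0.50 for Ccl2 and -0.11 for Wt1, and barcodes found in 1 library -0.84 for Ccl2 and -1.50 for Tomato. Depth limits low genes, and the genotype tests within interferon-response cells rest on 3 libraries each.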
